A study of Mus musculus with 4 samples.

Results

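The genes described here encode the proteins of the cytosolic ribosome. They were taken by symbol from the deposited expression tables, as names that start with Rpl (large subunit) or Rps (small subunit) and go on as the standard nomenclature does. The rule found 84 of 23700 rows, 52 for the large and 32 for the small subunit. The tables came from CD4 helper T cells of the spleen of C57BL/6 mice aged 43 weeks, with 2 libraries labelled wild type (WT 1, WT 2) and 2 labelled as a T-cell-specific knockout of Ripk1 (KO 1, KO 2), the kinase and scaffold of TNF receptor signalling. All 4 titles carry the tag Ctrl, which the labels do not explain, and no treatment or Cre line is named, and nothing in them says that replicate libraries are different mice. Each p-value then sets the difference between the groups against the scatter of these libraries, which may be technical. Values are given in the order WT 1, WT 2, then KO 1, KO 2, with "against" between the groups.

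The cytosolic ribosome is built from a small subunit, which reads the mRNA, and a large subunit, which joins amino acids. Most of its proteins are needed in equal numbers, and their mRNAs are among the most abundant of any cell. Most of these mRNAs begin with a run of pyrimidines, the terminal oligopyrimidine tract, through which mTORC1 signalling controls their translation. In T cells, ribosome production is known to increase strongly when a resting cell is activated.

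Some facts of the whole series bear on every value. Levels are FPKM, fragments scaled by the length of the transcript and by the mapped fragments of the library, and each library was estimated to hold 17100000 to 21600000 fragments. Ripk1 itself stood at 5.61 and 5.6 FPKM against 10.4 and 9.54 FPKM (limma adjusted p = 0.0262, and 0.222 after trimmed-mean scaling), so its level goes against the label, and the groups are named by their labels only. The tables do not show whether the counted part of the gene lies outside the deleted part. Of 7 helper T cell markers tested, 4 rose and 0 fell, where 25.6% of all rows tested rose and 1.0% fell. Trimmed-mean scaling, which rescales the libraries to a common centre, called 1 higher and 1 lower, against 4.64% and 5.19% of all rows. The summed level of these markers was 687 and 899 FPKM in the wild-type libraries against 1120 and 1054 FPKM in those labelled KO. All 7 tested rows of red blood cell genes rose (2 after trimmed-mean scaling), with sums of 9.91 and 146 FPKM against 561 and 450 FPKM. B cell markers summed to 6.62 and 6.77 FPKM against 14.8 and 14.0 FPKM, and myeloid markers to 2.45 and 4.0 FPKM against 7.41 and 9.42 FPKM. NK cell markers summed to 11.3 and 10.1 FPKM against 26.2 and 23.4 FPKM, and plasma cell markers to 14.2 and 20.3 FPKM against 25.3 and 30.6 FPKM. Neutrophil markers summed to 4.28 and 39.3 FPKM against 16.2 and 46.2 FPKM. Dendritic cell markers summed to 33.7 and 27.4 FPKM against 24.3 and 24.9 FPKM. Of the 2 dendritic rows tested, 0 rose and 0 fell, 1 had overlapping groups, and 1 was called lower after trimmed-mean scaling. CD8 T cell markers, of which 1 was tested and not called, summed to 11.3 and 10.7 FPKM against 11.1 and 11.6 FPKM. The part of these cell types in the ribosomal protein results was not tested. In bulk RNA, fewer cells of a type and less RNA per cell cannot be told apart.

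The sequence around the start of transcription is shown for 6 members, because the tract with which most of these mRNAs begin lies there. RefSeq (GRCm38.p6) gave promoters of 300 bases, 250 before and 50 after the start, for 75 starts of 63 members. Each line below gives 30 bases on the gene's own strand, 5′ to 3′, and capitals mark the pyrimidine motif CTCTTTCC or its shorter form CTTTCC where it occurs in the promoter.
Rpl28: ctctcgtgtctCTCTTTCCgtctccggccg
Rpl38: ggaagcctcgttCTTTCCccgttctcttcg
Rpl36a: gctctagcctctCTCTTTCCgagctgctag
Rpl11: cagctatgcctCTCTTTCCccctctcccct
Rps21: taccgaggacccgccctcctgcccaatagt
Rpl12: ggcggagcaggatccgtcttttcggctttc
They lie at chr7:4792954-4792983 (Rpl28, plus strand), chr11:114668568-114668597 (Rpl38, plus), chrX:134585674-134585703 (Rpl36a, plus), chr4:136053440-136053469 (Rpl11, minus), chr2:180257364-180257393 (Rps21, plus) and chr2:32961697-32961726 (Rpl12, plus). In Rpl28 and Rpl38 the motif begins at the annotated start itself (offset 0), in Rpl36a 32 bases after it and in Rpl11 65 bases before it. Rps21, of which the first of its annotated starts is shown, and Rpl12 held no copy of either form in the 300 bases, and their windows are centred on the start. On the sense strand, CTCTTTCC was found at 13.3% of member starts against 1.5% of all 32851 starts, and CTTTCC, which the longer form contains, at 38.7% against 14.1%. The ETS-type motif CCGGAAGT, searched on both strands, was found at 16.0% against 3.89%, and the YY1-type motif AAGATGGC, also on both strands, at 10.7% against 2.75%. The TATA box letters TATAAA, searched on the sense strand, were about as frequent at member starts (8.0%) as at all starts (8.32%). These matches describe letters and are not shown to be sites. The 2 pyrimidine strings are also not a measure of the tract, which is any run of pyrimidines at the first bases of the mRNA. The match in Rpl11 lies before the annotated start, and that in Rpl36a lies well after it. The Rpl12 window has no match but holds a run of pyrimidines next to its centre.

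Ribosomal protein mRNAs held a smaller share of the measured transcripts in both libraries labelled KO. The members took up 36.8% and 39.0% of summed FPKM in the wild-type libraries, against 22.4% and 22.7% in those labelled KO. In FPKM, their sums were 120943 and 159609 in the wild-type libraries and 74512 and 73816 in those labelled KO. All other rows together summed to 207823 and 250139 FPKM against 257998 and 251004 FPKM, so the sum outside the members was lowest in WT 1 and nearly the same in the other libraries. Small RNA genes took up 7.82% to 10.3% of the total, and without them the members' share was 40.7% and 42.3% against 24.8% and 25.3%. Of the 100 rows with the highest FPKM in a library, 66 and 70 were members in the wild-type libraries and 61 and 63 in those labelled KO.

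**Figure D1:**
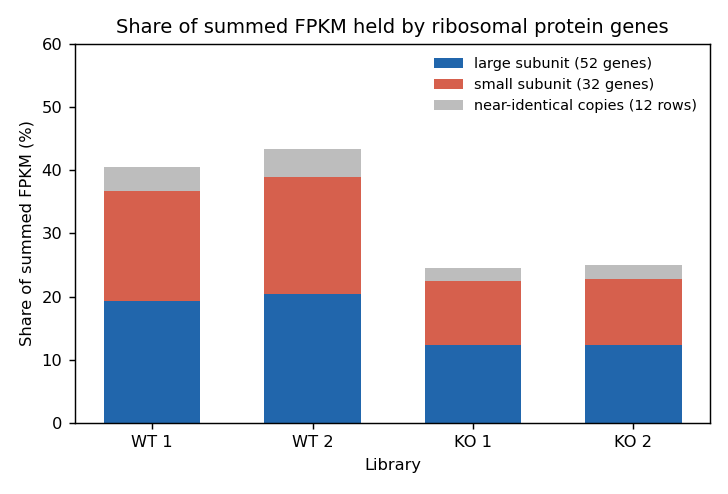
Share of summed FPKM (percent, linear axis from 0) held by large subunit genes, small subunit genes and 12 rows of near-identical copies in each of the 4 libraries. Each bar is 1 library, and the bars without copies reach 36.8% and 39.0% in the wild-type libraries and 22.4% and 22.7% in those labelled KO.

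Wild-type library 2 stood above wild-type library 1 for most members. Of the 80 members that could be tested, 77 were higher in WT 2, with a median ratio of 1.34, while the 2 libraries labelled KO were close to each other (32 higher and 48 lower in KO 2, median ratio 0.989). From WT 1 to WT 2 the median log2 change was 0.42 for members and 0.16 for all rows tested. The median member stood at 1445 and 1953 FPKM in the wild-type libraries and at 924 FPKM in both labelled KO. Set against WT 1 alone, 76 of 80 members were lower in KO 1 and 77 in KO 2. Set against WT 2 alone, the numbers were 78 and 79. Over all rows tested, the median log2 change from WT 1 was 0.51 to KO 1 and 0.45 to KO 2. From WT 2 it was 0.32 to KO 1 and 0.26 to KO 2.

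**Figure D2:**
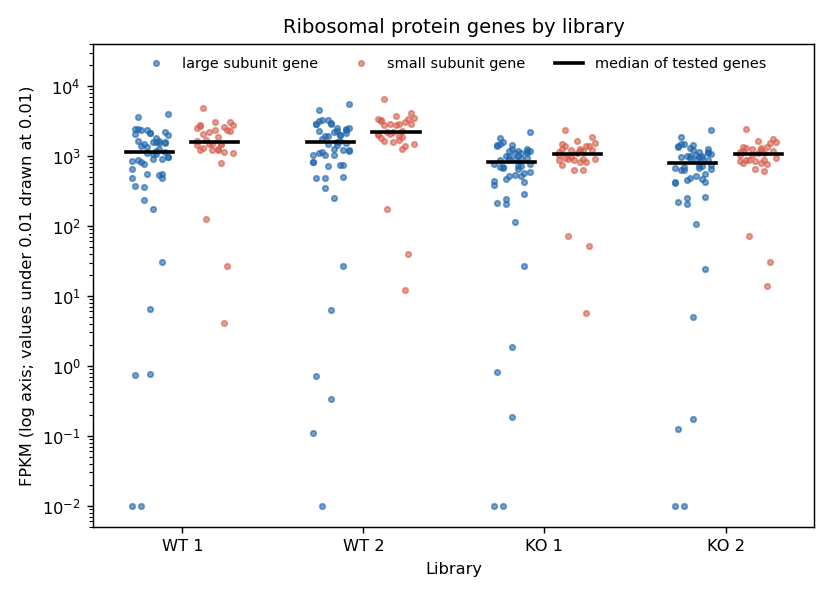
FPKM of all 84 members (log axis) in each library, with large subunit genes in blue and small subunit genes in red. Black lines mark the median of the tested genes, which is 1149 and 1574 FPKM against 826 and 806 FPKM for the large subunit and 1573 and 2186 FPKM against 1073 and 1078 FPKM for the small subunit.

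The design sets the transcriptome of the libraries labelled KO against that of the wild type. The comparison was tested by limma on log2(FPKM + 1) over the 11074 rows with at least 1 FPKM in at least 2 libraries, with Benjamini-Hochberg adjustment over all of them and a threshold of 0.05. Of the 84 members, 80 were tested, and 32 of these fell while 0 rose. Over all rows tested, 1.0% fell and 25.6% rose. The median member changed by -0.87 on the log2 scale, and the median row of the table by 0.38, so that the median member lay -1.25 from the median row. Single members ranged from -1.35 to 0.30, with 78 of 80 below 0 and all 80 below the median row. In 75 of the 80 members both libraries labelled KO lay below both wild-type libraries, as did 12.1% of all rows tested. The other 5, whose groups overlapped, included Rpl28, Rpl7l1, Rps27l and Rps27. An unadjusted p under 0.05 with a lower level was found for 60 members, against 2.84% of all rows tested. Trimmed-mean scaling, which moved the median row to -0.01 and the calls over all rows from 2832 higher and 111 lower to 514 higher and 575 lower, called 74 members lower and 0 higher (5.19% and 4.64% of all rows) with a median of -1.35. Quantile normalization called 6 lower and 0 higher (0.614% and 1.34% of all rows) with a median of -0.21. It gives every library the same distribution of values, so it can remove a change that most of the highest rows share. Members made up 61 to 70 of the 100 highest rows of each library, so this setting cannot decide whether they fell together. Without WT 1, WT 2, KO 1 or KO 2 in turn, 0, 39, 0 or 1 members were called lower, with a median change of -1.07, -0.65, -0.88 or -0.87, under the assumption that the lone library of the reduced group varies like those of the other group. No call of a single member named below therefore held without WT 1 or without KO 1.

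**Figure D3:**
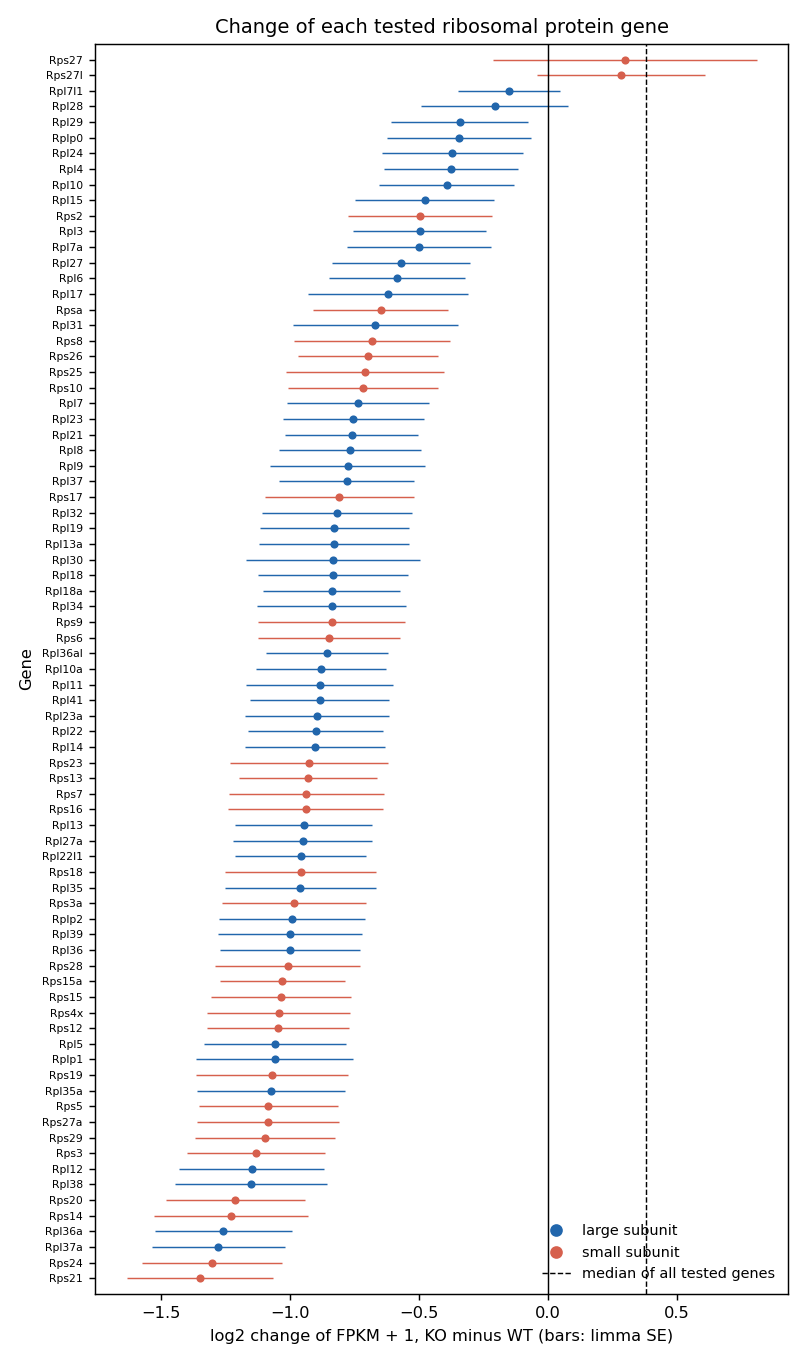
Log2 change of FPKM + 1, KO minus WT, of 79 of the 80 tested members (points, limma SE as bars), ordered by size, with large subunit genes in blue and small subunit genes in red. The dashed line is the median of all tested rows at 0.38, and every point lies to its left, from Rps21 at -1.35 to Rps27 at 0.30.

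Small and large subunit genes had similar median changes, slightly lower for the small subunit. Of 32 small subunit genes tested, 16 fell, with a median change of -0.95 and with 29 whose groups did not overlap. Of 48 large subunit genes tested, 16 fell, with a median change of -0.83 and with 46 whose groups did not overlap. The medians of these changes differed by 0.12 on the log2 scale. Within a library, the median level of large subunit genes less that of small subunit genes was -0.45 and -0.47 against -0.38 and -0.42 on the log2 scale, a smaller shift between the groups. Summed FPKM of large subunit genes over that of small subunit genes was 1.10 in both wild-type libraries and 1.21 and 1.19 in those labelled KO. These sums leave out the near-identical copies described below, which match genes of both subunits. The highest copy row, that of the small subunit gene Rps27, stood at 6468 and 10109 FPKM against 3586 and 3786 FPKM, so the ratios depend on how fragments were divided. The ratios of the groups do not overlap, but no test was made, and after quantile normalization the difference of the medians had the opposite sign (-0.09). Changes spread over an SD of 0.27 among large and 0.38 among small subunit genes, so that the subunits overlap over most of their range. The small subunit spread includes Rps27 (0.30) and its paralog Rps27l (0.28), both at low levels, and the level of the Rps27 row is uncertain, as described below. After trimmed-mean scaling 29 of 32 small and 45 of 48 large subunit genes were called lower.

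Among small subunit genes, the largest falls were those of Rps21, Rps24 and Rps14. Rps21, one of the shortest proteins of the small subunit, stood at 2504 and 3339 FPKM against 1128 and 1144 FPKM. Its wild-type mean was 2.57 times that of the libraries labelled KO (log2 change -1.35 ± 0.28 SE, limma adjusted p = 0.0212). Rps24, mutated in some families with Diamond-Blackfan anaemia, an inherited failure of red cell formation, read 2775 and 3285 FPKM against 1251 and 1198 FPKM (2.47 times, -1.30 ± 0.27 SE, limma adjusted p = 0.0206). In both genes the lower wild-type library read more than the higher of those labelled KO by far more than the replicates differed in the latter group. The wild-type replicates differed more from each other, with an SD of 591 FPKM against 11.5 FPKM for Rps21 and 361 FPKM against 37.2 FPKM for Rps24. Rps14, the gene whose loss underlies the anaemia of the 5q- syndrome, had the highest mean level of all members, at 4873 and 6612 FPKM against 2376 and 2469 FPKM (2.37 times, -1.23 ± 0.30 SE, limma adjusted p = 0.0287).

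The other small subunit genes among the 10 largest falls were Rps20, Rps3 and Rps29. Rps20 stood at 2364 and 2815 FPKM against 1114 and 1115 FPKM (limma adjusted p = 0.0232). Rps3, at the entry of the mRNA channel and also a DNA repair factor, stood at 1236 and 1576 FPKM against 621 and 653 FPKM (limma adjusted p = 0.0267). Rps29, a small zinc-binding protein of the subunit's head, stood at 2304 and 2853 FPKM against 1206 and 1192 FPKM (limma adjusted p = 0.0305). In each of these genes the levels in the libraries labelled KO lay within a few percent of each other, whereas WT 2 was the higher of the wild-type libraries.

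Among large subunit genes, Rpl37a, Rpl36a, Rpl38 and Rpl12 fell most. Rpl37a, a zinc-binding protein, stood at 2240 and 2152 FPKM against 939 and 874 FPKM, a ratio of 2.42 (-1.28 ± 0.26 SE, limma adjusted p = 0.0194). It was 1 of 3 members that were not higher in WT 2 than in WT 1, and its adjusted p was the smallest of the members. Rpl36a, which lies near the exit site for tRNA, stood at 1405 and 1739 FPKM against 682 and 626 FPKM (2.40 times, limma adjusted p = 0.0213). Rpl38, whose loss in mice alters the translation of Hox mRNAs, stood at 2332 and 3260 FPKM against 1182 and 1305 FPKM (2.25 times, limma adjusted p = 0.0327). Rpl12, part of the base of the stalk, stood at 3668 and 4504 FPKM against 1814 and 1854 FPKM (2.23 times, limma adjusted p = 0.0288). For all of these the groups did not overlap.

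The highest members were Rps14, Rplp1 and Rpl12, followed by Rps18, Rps4x, Rps3a, Rps12 and Rpl13a. Rps4x, encoded on the X chromosome, stood at 3105 and 3758 FPKM against 1648 and 1667 FPKM (limma adjusted p = 0.0353). Rps12 stood at 2682 and 3206 FPKM against 1490 and 1353 FPKM (limma adjusted p = 0.0347), and Rps3a at 2745 and 3483 FPKM against 1548 and 1577 FPKM (limma adjusted p = 0.0428). Those 3 fell, while Rps18 and Rpl13a missed the threshold. Rps18, in the head of the small subunit, stood at 3040 and 4090 FPKM against 1869 and 1762 FPKM (limma adjusted p = 0.0514). Rpl13a, which is also a silencer of certain mRNAs under interferon when it leaves the ribosome, stood at 2362 and 3229 FPKM against 1604 and 1504 FPKM (limma adjusted p = 0.0750).

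**Figure D4:**
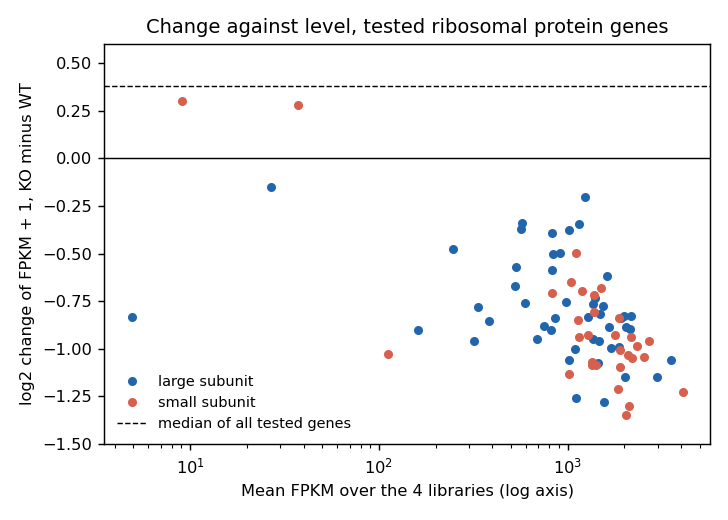
Log2 change of FPKM + 1, KO minus WT (linear axis), of the same 79 tested members against its mean FPKM over the 4 libraries (log axis). Members above 1000 FPKM reach down to -1.35, and the dashed line marks the median of all tested rows at 0.38.

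Members with higher levels tended to have lower log2 changes. Over the 74 standard members at or above a mean of 100 FPKM, the change had a Spearman rho of -0.60 and a Pearson r of -0.47 with the wild-type level, and -0.51 and -0.38 with the level over all libraries. The wild-type level enters the change itself, and all members share the same 4 libraries. Against transcript length rho was 0.27 and r was 0.18. Highly expressed rows that were no members had other changes: 76 members at 100 FPKM or more had a median change of -0.88, while 255 other rows at that level had one of 0.13. Among transcripts under 800 bases, 49 members had a median of -0.88, and 81 other genes at 100 FPKM or more one of -0.05.

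The stalk is the flexible arm of the large subunit that recruits the factors of translation, made of the acidic proteins Rplp1 and Rplp2 on the anchor Rplp0. Rplp1 stood at 3992 and 5621 FPKM against 2223 and 2327 FPKM (2.11 times, -1.06 ± 0.30 SE, limma adjusted p = 0.0436). Rplp2 stood at 2145 and 2842 FPKM against 1267 and 1214 FPKM (2.01 times, -0.99 ± 0.28 SE, limma adjusted p = 0.0430). Rplp0 differed less, at 1096 and 1486 FPKM against 1014 and 998 FPKM (1.28 times, -0.34 ± 0.28 SE, limma adjusted p = 0.372). The acidic pair fell, whereas the anchor, often used as a reference gene in quantitative PCR, did not pass the test. After trimmed-mean scaling all 3 were called lower (Rplp0 limma adjusted p = 0.0433), and after quantile normalization Rplp0 had the opposite sign (0.39). The difference between these changes was not tested.

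Rpl5 and Rpl11 bind the 5S ribosomal RNA and, when free, inhibit Mdm2 and so stabilise p53. Rpl5 stood at 1174 and 1594 FPKM against 648 and 665 FPKM, and fell (2.11 times, -1.06 ± 0.28 SE, limma adjusted p = 0.0345). Rpl11 stood at 1835 and 2490 FPKM against 1184 and 1133 FPKM, with groups that did not overlap but an adjusted p above the threshold (1.87 times, -0.88 ± 0.28 SE, limma adjusted p = 0.0597). Rps27a, which is made as a fusion with ubiquitin, fell from 1670 and 2181 FPKM to 918 and 881 FPKM (limma adjusted p = 0.0322). Rps6, the substrate of S6 kinase and a common readout of mTORC1 activity as a phosphoprotein, stood at 1266 and 1677 FPKM against 823 and 796 FPKM (limma adjusted p = 0.0608). Rpsa, also described as a laminin receptor, stood at 1146 and 1390 FPKM against 830 and 781 FPKM (limma adjusted p = 0.108).

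Small changes were also found at high levels. Rpl28, a large subunit protein found in eukaryotes, stood at 1124 and 1554 FPKM against 1190 and 1104 FPKM (-0.21 ± 0.29 SE, limma adjusted p = 0.604). WT 1 lay among the libraries labelled KO and only WT 2 stood above them. Without WT 2 the change had the opposite sign, at 0.03. Rpl28 carries the long pyrimidine motif printed above at its annotated start. Rpl36a, which was among the largest falls (-1.26), carries it 32 bases after its annotated start.

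Rpl29, Rpl24, Rpl4, Rpl10 and Rpl3 lay between Rpl28 and most other members. Rpl4, whose long loop lines the exit tunnel, stood at 1055 and 1259 FPKM against 904 and 874 FPKM (limma adjusted p = 0.301). Rpl10, which joins the large subunit late, in the cytoplasm, stood at 849 and 1024 FPKM against 757 and 668 FPKM (limma adjusted p = 0.286). Rpl3, next to the peptidyl transferase centre, stood at 964 and 1164 FPKM against 762 and 739 FPKM (limma adjusted p = 0.185). Rpl24 stood at 543 and 748 FPKM against 519 and 469 FPKM (limma adjusted p = 0.328), and Rpl29 at 553 and 729 FPKM against 521 and 482 FPKM (limma adjusted p = 0.350). In these 5 genes both libraries labelled KO lay below both wild-type libraries, by less than in most members, and none passed the test. After trimmed-mean scaling all 5 passed it, with adjusted p from 0.0273 (Rpl3) to 0.0419 (Rpl24).

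Several ribosomal proteins have a second gene, a paralog, often used in particular tissues. Rpl22l1 and its partner Rpl22, a pair with known roles in T cell development, fell by like amounts. Rpl22l1 stood at 368 and 482 FPKM against 212 and 221 FPKM (1.96 times, -0.96 ± 0.25 SE, limma adjusted p = 0.0353). Rpl22 stood at 174 and 251 FPKM against 115 and 108 FPKM (1.90 times, -0.90 ± 0.26 SE, limma adjusted p = 0.0455), so the paralog was at a higher FPKM than its partner in every library. Rpl36al fell from 484 and 507 FPKM to 288 and 259 FPKM (1.81 times, limma adjusted p = 0.0398), and lay below its partner Rpl36a in every library.

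Rpl7l1 and Rps27l were at low levels and did not pass the test. Rpl7l1 stood at 30.2 and 26.6 FPKM against 26.7 and 24.2 FPKM (-0.15 ± 0.20 SE, limma adjusted p = 0.585), while its partner Rpl7 stood at 1532 and 1975 FPKM against 1088 and 1003 FPKM (limma adjusted p = 0.0893). Rps27l, a p53 target in mouse and human cells, stood at 26.4 and 40.4 FPKM against 52.3 and 30.4 FPKM (0.28 ± 0.33 SE, limma adjusted p = 0.532), with overlapping groups and a sign that turns after trimmed-mean scaling (-0.19). The paralogs known from testis and muscle read under 1 FPKM and were not tested. Rpl10l, known from male germ cells, read 0.738 and 0.715 FPKM against 0.829 and 0.127 FPKM, while Rpl39l, also known from male germ cells, read 0.773 and 0.337 FPKM against 0.188 and 0.173 FPKM. Rpl3l, the paralog of striated muscle, read 0.108 FPKM in WT 2 and was listed at 0 in the other libraries. Rpl39, the standard partner of Rpl39l, fell from 1986 and 2526 FPKM to 1193 and 1054 FPKM (limma adjusted p = 0.0408).

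For 3 standard members the gene's own row read low while a near-identical copy elsewhere in the genome read high. Rpl26 was listed at 0.000357 and 0.000341 FPKM against 0.000470 and 0.000431 FPKM and was not tested. Rps27 read 4.15 and 12.1 FPKM against 5.79 and 14.1 FPKM, and Rpl30, singled out after its values were seen, read 6.48 and 6.30 FPKM against 1.85 and 5.05 FPKM. The coding sequences of these genes and of their copies in GENCODE (GRCm38) show how little separates them. Stretches of 60 coding bases are printed, with the base that differs in capitals.
Rps27 (chromosome 3): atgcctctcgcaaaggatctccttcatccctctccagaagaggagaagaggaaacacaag
Gm9846 (chromosome 9): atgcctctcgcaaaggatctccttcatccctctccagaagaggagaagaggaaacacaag
Rpl30 (chromosome 15): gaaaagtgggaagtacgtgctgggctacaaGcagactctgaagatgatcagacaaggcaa
Gm12191 (chromosome 11): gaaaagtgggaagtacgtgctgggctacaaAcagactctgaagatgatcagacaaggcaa
Rpl26 (chromosome 11): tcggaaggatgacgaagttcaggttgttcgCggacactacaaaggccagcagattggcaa
Gm15772 (chromosome 5): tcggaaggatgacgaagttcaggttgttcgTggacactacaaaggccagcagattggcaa
Over the whole coding sequence, Gm9846 (Rps27rt in the annotation) differs from Rps27 at 0 of 252 bases, Gm12191 from Rpl30 at 1 of 345 and Gm15772 from Rpl26 at 2 of 435. Rps27, Rpl30 and Rpl26 have introns, and each of the copies is a single exon. The sources do not say how the authors' counting divided fragments between such rows, so the level of each row alone is uncertain.

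The copy rows carried levels as high as those of other members. Gm9846 stood at 6468 and 10109 FPKM against 3586 and 3786 FPKM, and fell (2.25 times, -1.13 ± 0.33 SE, limma adjusted p = 0.0461). Gm15772 stood at 2333 and 3094 FPKM against 1335 and 1275 FPKM and fell (2.08 times, limma adjusted p = 0.0382). Gm12191 stood at 2473 and 3446 FPKM against 1469 and 1559 FPKM, with groups that did not overlap (1.95 times, limma adjusted p = 0.0544). Each of these copy rows thus differed between the groups in the direction of most members, as did the low row of Rpl30, whose groups did not overlap (-0.83, limma adjusted p = 0.109), while the groups of Rps27 overlapped.

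**Figure D5:**
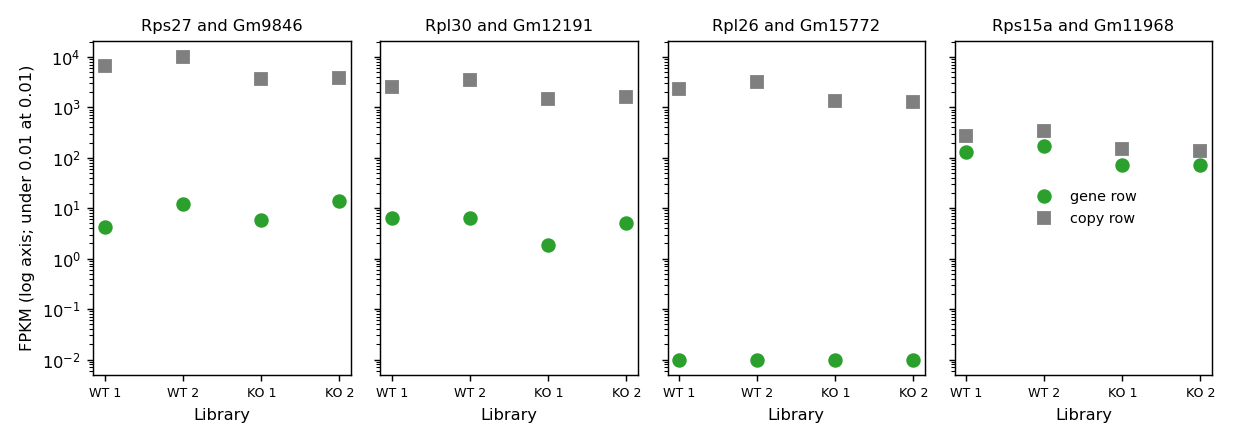
FPKM (log axis) of 4 genes (green circles) and their near-identical copies (grey squares) in each library. The copies of Rps27, Rpl30 and Rpl26 stand above 1000 FPKM in every library while the genes stand below 15 FPKM, and Rps15a stands near its copy Gm11968.

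In all, 12 rows at a mean of at least 1 FPKM matched 11 members over at least 70% of the copy's transcript at 95% identity or more. Of these copies 8 fell, against 1.0% of all rows tested, and 11 were lower without overlap, against 12.1%. Their median change was -1.05. Together they held 3.70% and 4.34% of summed FPKM against 2.08% and 2.21%. Members and copies together held 40.5% and 43.3% in the wild-type libraries and 24.5% and 24.9% in those labelled KO.

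Members that share a feature outside the rule had counts and medians close to those of the rest. Over all rows tested, 1.0% fell. Of 27 tested members known to host small nucleolar RNAs in their introns, 10 fell, with a median of -0.83. Of 49 other standard members 20 fell, with a median of -0.90. Of 18 tested members tied to Diamond-Blackfan anaemia 7 fell (median -0.91), and of 58 other standard members 23 fell (median -0.86). Of 8 tested members at the exit of the nascent chain tunnel 3 fell (median -0.90), where 16 of all 48 large subunit genes tested fell (median -0.83). The 24 tested members with CTTTCC in their promoter had a median of -0.83 and the 35 without it one of -0.94. The 7 tested members with the longer CTCTTTCC had a median of -0.83 and the 52 without it one of -0.89.

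Ribosomal proteins whose symbols follow another pattern were also lower in the libraries labelled KO, without passing the test. Fau, whose product is a ubiquitin-like fusion with a small subunit protein, stood at 1221 and 1645 FPKM against 849 and 815 FPKM (limma adjusted p = 0.0811). Gnb2l1, which encodes the ribosomal scaffold Rack1, stood at 849 and 1164 FPKM against 686 and 663 FPKM (limma adjusted p = 0.167). In both genes the groups did not overlap, and both were called lower after trimmed-mean scaling.

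Other RNAs known to carry a terminal oligopyrimidine tract are mostly those of translation factors, with the non-coding Gas5 among them. Their median change was nearer to 0 than that of the members, and single changes went in both directions. Of 20 tested, 0 rose and 0 fell by the limma test, where 25.6% of all rows rose and 1.0% fell. At an unadjusted p under 0.05, 1 was higher and 2 were lower, against 39.5% and 2.84% of all rows. Their median change was -0.20, against a median row of 0.38, and 16 of the 20 lay below the median row. After trimmed-mean scaling 8 were called lower, against 5.19% of all rows. Eef1b2, a subunit of the exchange factor of elongation factor 1, stood at 357 and 508 FPKM against 240 and 236 FPKM (-0.84, limma adjusted p = 0.0591). Tpt1, translationally controlled tumour protein, stood at 4510 and 6324 FPKM against 3069 and 3301 FPKM (-0.75, limma adjusted p = 0.112). Eif4b, an activator of the initiation helicase, was higher in the libraries labelled KO, at 57.5 and 57.0 FPKM against 89.8 and 84.3 FPKM (0.60, limma adjusted p = 0.0723).

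The mitochondrial ribosome, a separate particle with its own proteins, had few calls. Of 76 of its protein genes tested, 1 rose and 0 fell, where 25.6% of all rows rose and 1.0% fell. Their median change was -0.01, against a median row of 0.38, and 71 of the 76 lay below the median row. After trimmed-mean scaling 10 were called lower, against 5.19% of all rows. The gene that rose was Mrpl44, from 2.29 and 3.73 FPKM to 9.66 and 5.75 FPKM (limma adjusted p = 0.0326, and 0.107 after trimmed-mean scaling). Mrpl23 stood at 38.0 and 51.2 FPKM against 25.3 and 26.9 FPKM (limma adjusted p = 0.0512).

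Genes that make ribosomes rather than form them showed 2 rises and 0 falls among 62 tested, where 25.6% of all rows rose, with a median change of 0.10. Those that rose were Polr1a and Ubtf. Polr1a, the largest subunit of RNA polymerase I, which transcribes ribosomal DNA, stood at 2.98 and 2.74 FPKM in the wild-type libraries and at 5.41 and 4.66 FPKM in those labelled KO (limma adjusted p = 0.0379). Ubtf, the upstream binding factor of that polymerase, stood at 16.5 and 21.2 FPKM against 32.1 and 32.7 FPKM (limma adjusted p = 0.0393). After trimmed-mean scaling 0 of the 62 were called higher and 10 lower, against 4.64% and 5.19% of all rows.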

How the data were processed

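For each library the authors supplied a table of FPKM by symbol, per the file headers. Direct-zol RNA, 200 ng of it per library, went through the NEBNext Ultra kit, per the labels' protocols. The submitters' processing notes list Bowtie 0.12.2 and the build mm8. How FPKM was computed, with which annotation and with what treatment of multiply mapping fragments, is not given in the sources used. Depth was estimated from the steps of low values with an assumed fragment of 200 bases. Between 70.3% and 72.2% of such values lay within 5% of a whole number of fragments, too few for a count test.

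Rows reaching 1 FPKM in 2 or more of the 4 libraries were tested with limma 3.58.1 (R 4.3.3, intensity trend, two-sided) on log2(FPKM + 1), a scale that understates changes of low genes. Folds are ratios of mean FPKM, with n = 2 libraries per group. A single value permuted over 2 against 2 libraries cannot give a p below 0.333. Trimmed-mean scaling trimmed 30% of log ratios and 5% of levels. Copies were found with BLAST+ 2.17.0 in GENCODE transcripts. Promoters are RefSeq's, matched by symbol, and lengths are medians of protein-coding transcripts. Coordinates are those of GRCm38 and not of the authors' build.

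The members and gene lists were chosen with earlier results of these data known. Members were named by rule: the 8 highest, the 10 lowest and 10 highest changes, fixed role groups, paralogs with their partners and those not tested, and up to 3 genes of each other list by unadjusted p. A few genes are not reported here. Rpl30 and Rps15a were named after their values were seen.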

Additional observations from a re-analysis of the deposited data

How the results depend on the processing

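The alternatives were other pseudocounts, filters, scalings, a fit without intensity trend, removal of a trend with transcript length, a replicate block and each library left out. A scaling to the total without small RNA and member genes was chosen after seeing the data. The member count of 32 lower became 0 with no filter, 74 with trimmed-mean scaling, 6 with quantile normalization, 64 with the total without small RNA genes, 74 with the total without small RNA and member genes and 56 with no intensity trend. With a replicate block, which rests on shared numbers only (the correlation of deviations was 0.108 over all rows and 0.259 over the tested members), it was 19, and 230 rows fell in all. Over all rows, higher and lower counts were 3 and 0 with no filter, 514 and 575 with trimmed-mean scaling, and 148 and 68 with quantile normalization. Higher rows numbered 1562 at a mean of at least 5 FPKM and 4824 with the total without small RNA genes; with member genes left out too, 1736 were higher and 247 lower. Leaving out 1 library gave 9 to 2173 higher and 1 to 132 lower rows, 0 to 39 lower members, and a difference between subunits of 0.12 to 0.16. The median member relative to the median row was -1.08 at a pseudocount of 5, -0.94 with no filter and -0.20 with quantile normalization, and its own median change was -1.35 with trimmed-mean scaling and -0.21 with quantile normalization, where the subunit difference was -0.095. In quantile normalization the sign turned for Rpl10 (0.012), Rpl13a (0.071), Rpl28 (0.52), Rpl4 (0.26), Rpl7 (0.027), Rplp0 (0.39), Rps27 (-0.14) and Rps27l (-0.017). It turned for Rpl7l1 with the total without small RNA genes (0.021), and for Rps27 (-0.12) and Rps27l (-0.19) with trimmed-mean scaling. With 1 library left out, Rpl28 ranged from -0.44 to 0.028 (without WT 2), while Rps27 ranged from -0.37 (without WT 1) to 0.97 and Rps27l from -0.10 (without KO 1) to 0.66. The cause of these shifts was not tested.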
